A study of Mus musculus with 12 samples.

Results

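Bulk RNA sequencing libraries of 12 mouse brains differed in how much cerebellar transcript they held, and the contrast described here sets the 4 cerebellum-rich libraries against the 7 cerebellum-free libraries, 11 of the 12 in all. The sides were selected on 1 transcript, Gabra6, in CPM, its count divided by the library's total and scaled to a fixed library size. A library counted as rich at a Gabra6 level of at least 200 CPM and as free below 2 CPM, whatever its treatment. The 1 library in between, PAP-1 1, belonged to neither side and is given apart.

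All 12 mice carried the 5xFAD genotype, and the labels name whole brain as the tissue and 1 mouse per library. The study title concerns inhibition of the potassium channel encoded by Kcna3, and there are 4 treatment groups of 3 mice, PBS, Control, PAP-1 and ShK-223. PAP-1 is a small-molecule blocker of that channel, and ShK-223 an analogue of a peptide toxin of sea anemones that blocks it. The labels leave the strain as not specified and do not state dose, route, duration, age, sex or how Control differs from PBS. The rich side held Control 2, PBS 1, PBS 2 and PBS 3. The free side held Control 1, Control 3, the 3 ShK-223 libraries, PAP-1 2 and PAP-1 3. Replicate numbers follow the order of deposition and pair nothing. Every PBS library was thus rich and every ShK-223 library free, so that region and treatment cannot be told apart except within Control, with 1 rich and 2 free libraries. The labels also carry the batch names B, C and CH without saying what they mean. The rich side held 3 libraries of C and 1 of CH, and the free side 3 of B, 1 of C and 3 of CH. Control 1 was of batch B, Control 2 of C and Control 3 of CH, and only the column name of Control 2 carries another lane number. Within Control, region therefore cannot be told apart from batch or lane.

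The 5xFAD mouse expresses mutant human transgenes of familial Alzheimer disease under a neuronal Thy1 promoter, and its amyloid plaques are densest in subiculum and deep cortex. The cerebellum lies outside the forebrain and is built mainly of granule cells, which excite Purkinje cells through parallel fibres, together with inhibitory interneurons and Bergmann glia, the astrocytes that line Purkinje dendrites. Cells of the telencephalon (cortex, hippocampus, striatum) descend from another part of the neural tube, and each territory keeps transcription factors of its origin into adult life.

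Promoters of the 4 marker genes are shown because these genes define or check the sides: Gabra6, the granule cell GABA-A receptor subunit; Cbln3, a secreted cerebellin of granule cells; Pcp2, a G-protein regulator of Purkinje cells; and Neurod6, a helix-loop-helix factor made by excitatory neurons of the forebrain. Each run covers 250 bases before to 50 after the start in RefSeq (GRCm38.p6) and is written 5′ to 3′ on the gene's strand, which is the minus strand for all 4. The regions are chr11:42321023-42321322 for Gabra6, chr14:55884207-55884506 for Cbln3, chr8:3625498-3625797 for Pcp2, which has 4 starts in the table with the one farthest upstream shown, and chr6:55681214-55681513 for Neurod6. Capitals mark TTGGCA, a half-site of nuclear factor I, read as TGCCAA where it lies on the other strand, or CAGATG, a form of the E-box bound by basic helix-loop-helix factors.
Gabra6: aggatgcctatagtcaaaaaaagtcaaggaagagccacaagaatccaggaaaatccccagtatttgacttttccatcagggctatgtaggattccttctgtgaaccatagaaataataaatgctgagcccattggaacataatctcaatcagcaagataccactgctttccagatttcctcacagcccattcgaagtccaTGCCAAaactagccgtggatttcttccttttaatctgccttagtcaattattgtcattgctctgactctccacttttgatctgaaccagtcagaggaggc
Cbln3: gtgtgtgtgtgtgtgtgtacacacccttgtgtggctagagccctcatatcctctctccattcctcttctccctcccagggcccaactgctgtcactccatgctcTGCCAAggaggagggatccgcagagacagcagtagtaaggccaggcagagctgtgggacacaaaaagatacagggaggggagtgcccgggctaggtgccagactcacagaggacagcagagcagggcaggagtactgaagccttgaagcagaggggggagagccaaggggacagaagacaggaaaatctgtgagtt
Pcp2: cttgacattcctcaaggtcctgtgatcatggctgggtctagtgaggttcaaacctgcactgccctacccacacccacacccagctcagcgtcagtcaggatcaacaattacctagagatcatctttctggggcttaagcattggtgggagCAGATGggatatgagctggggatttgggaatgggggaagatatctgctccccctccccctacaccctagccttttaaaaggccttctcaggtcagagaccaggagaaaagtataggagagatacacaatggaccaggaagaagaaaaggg
Neurod6: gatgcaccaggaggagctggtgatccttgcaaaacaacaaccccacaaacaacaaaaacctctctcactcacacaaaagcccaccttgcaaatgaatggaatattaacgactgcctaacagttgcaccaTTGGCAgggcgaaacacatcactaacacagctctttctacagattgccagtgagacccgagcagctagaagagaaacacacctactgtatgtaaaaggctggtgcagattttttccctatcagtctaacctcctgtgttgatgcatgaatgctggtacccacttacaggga
The nuclear factor I half-site occurred once each in the Gabra6, Cbln3 and Neurod6 windows, and the E-box once in the Pcp2 window. Both motifs were searched on both strands, and they do not overlap each other. Among the promoters of 27025 genes, 14.37% held TTGGCA and 17.26% held CAGATG. Among genes higher in rich libraries by the rule given below the shares were 14.85% and 13.64% of 660 promoters, and among genes lower there 11.99% and 13.14% of 784. Over the promoters of all 11024 tested genes with an entry the shares were 11.4% and 11.95%. A letter match describes the window and is not evidence of a bound site.

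Gabra6 (gene body chr11:42306437-42321072, minus strand, GRCm38) chose the libraries, so its values are a description. It measured 331 CPM in Control 2, 384 in PBS 1, 457 in PBS 2 and 423 in PBS 3. The free libraries ran from 0.0546 to 1.24 CPM with a median of 0.331. The library just inside the rich threshold was Control 2, the one just above the free threshold was PAP-1 1 at 58.8 CPM, and the highest free library was Control 1 at 1.24 CPM, which is 19 counts.

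The other 3 markers fell on the same sides. Cbln3 (chr14:55878913-55884392, minus strand) measured 958 CPM in Control 2, 1121 in PBS 1, 1103 in PBS 2 and 1072 in PBS 3, against 0.437 to 3.78 CPM in the free libraries and 224 CPM in PAP-1 1. Pcp2 (chr8:3623371-3625545, minus strand) measured 80.2 CPM in Control 2, 85.5 in PBS 1, 91.8 in PBS 2 and 91.3 in PBS 3, against 0.382 to 0.662 CPM on the free side. Neurod6 (chr6:55677822-55681263, minus strand) ran the other way, with 25.7 CPM in Control 2, 16 in PBS 1, 8.28 in PBS 2 and 8.90 in PBS 3 and from 29.2 to 94.3 CPM with a median of 65.3 on the free side. The sides did not overlap for any of these transcripts, but for Neurod6 the gap was narrow, between Control 2 and the lowest free library, Control 1. The label "cerebellum-rich" thus held for granule cell and Purkinje cell markers alike, and the label "whole brain" did not separate the sides.

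**Figure D1:**
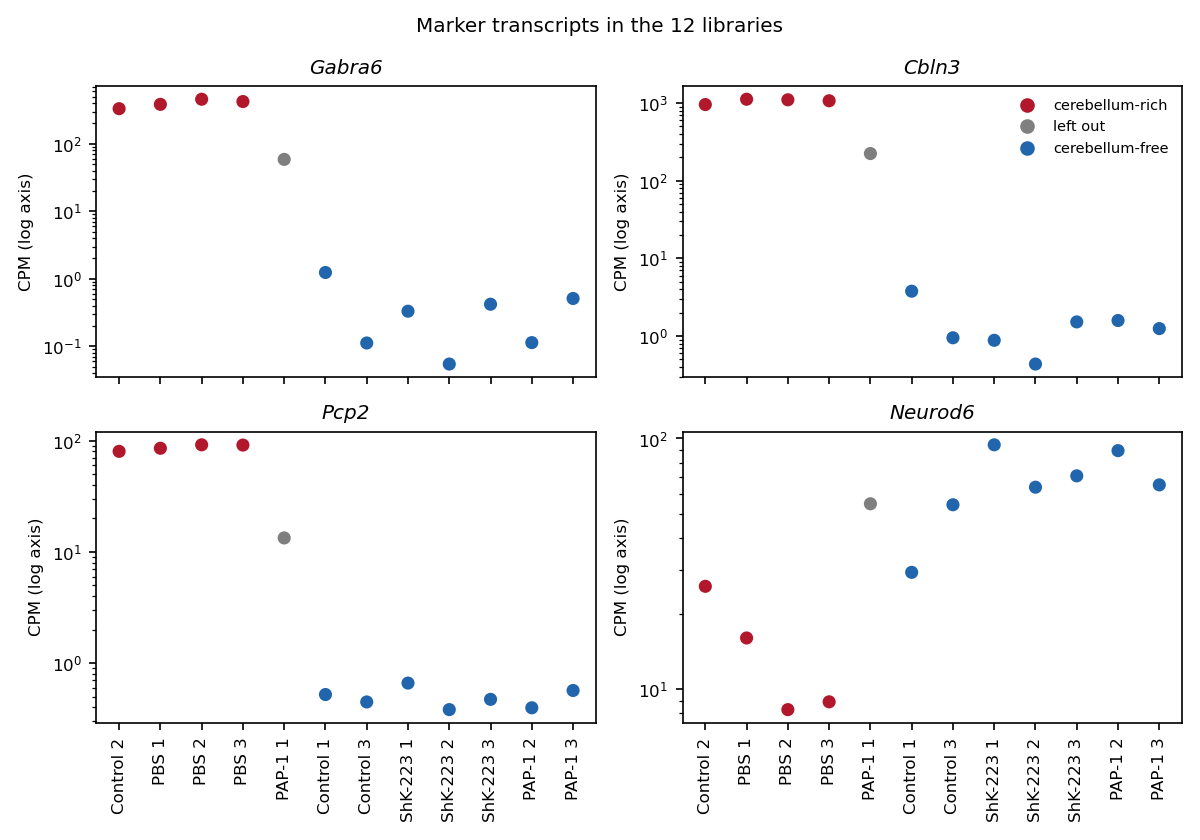
CPM (log axis) of Gabra6, Cbln3, Pcp2 and Neurod6 in each of the 12 libraries, 1 point per library, coloured by side. Gabra6 chose the sides. The 4 rich libraries lie between 331 and 457 CPM for Gabra6, PAP-1 1 lies at 58.8, and the free libraries lie at or below 1.24, while Neurod6 is lowest in PBS 2 and PBS 3.

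Across the transcriptome the contrast reached well beyond the markers. A gene was called higher or lower where all 4 rich libraries lay above, or all below, all 7 free libraries and the difference of mean log2(CPM + 0.5) was at least 1, among 14121 genes with a mean of at least 1 CPM over the 11 libraries. Such calls describe these libraries and carry no p-value, since every gene of the contrast shares its libraries with Gabra6. Every difference given below is on this log2 scale, rich minus free. By this rule 871 genes (6.17%) were higher and 1051 (7.44%) lower in rich libraries. Non-overlap alone, at any difference, was common. All 4 rich libraries lay above all 7 free ones in 3891 of the 14121 genes and below them in 2846, and 7384 genes overlapped. Where a gene below is said not to overlap, these are the counts to set beside it. The median difference was 1.56 among higher genes and -1.45 among lower genes, against 0.04 over all tested genes. The 2 tails differed in length: 114 higher and 28 lower genes differed by at least 3 on the log2 scale, 54 higher and 0 lower genes by at least 4, and 13 higher genes by at least 6. Only 1 tested gene, Lbx1, a homeobox transcription factor of hindbrain and spinal cord neurons, had 0 counts in all 7 free libraries. Its mean of 6.98 CPM in rich libraries was at least 289-fold higher than a floor of 3 counts over the free side, and it is named here because the count is 1, after its value was seen. No tested gene was at 0 in all 4 rich libraries. In bulk tissue, fewer cells of a type and less of a transcript per cell cannot be told apart.

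**Figure D2:**
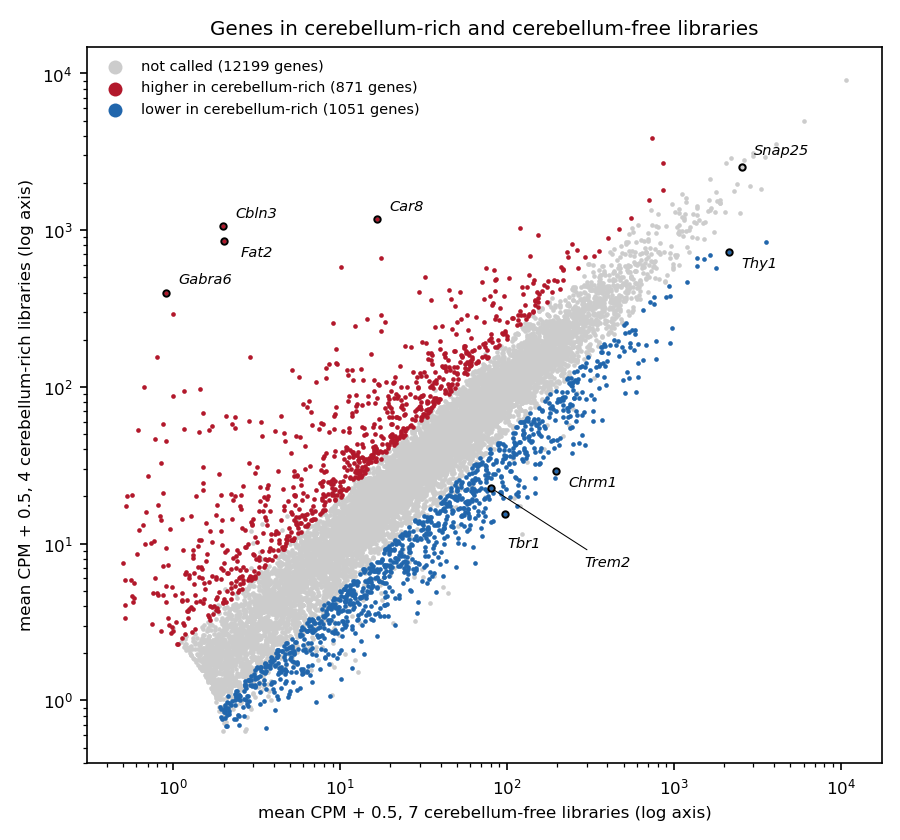
Mean CPM + 0.5 of each of 14121 genes in the 7 cerebellum-free (x) and 4 cerebellum-rich libraries (y), both axes log, 1 point per gene, with called genes in colour. Higher genes reach from Gabra6, Fat2 and Cbln3 near the left edge to Car8, whereas lower genes such as Tbr1 and Chrm1 stay closer to the diagonal. Snap25 lies on it.

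Among called genes with a mean of at least 5 CPM, predicted gene models left aside, the 12 with the largest higher differences were Cbln3, Fat2, Gabra6, Cnpy1, Ppp1r17, Crtam, Lhx1, Pcp2, Nrk, Car8, Dao and En2, with differences from 9.21 down to 6.09. Fat2, a large cadherin of granule cell parallel fibres, measured 779 CPM in Control 2, 914 in PBS 1, 992 in PBS 2 and 751 in PBS 3, against 0.327 to 4.89 CPM on the free side. Cnpy1, known in zebrafish as a regulator of fibroblast growth factor signalling at the midbrain-hindbrain boundary, measured 253 CPM in Control 2, 315 in PBS 1, 308 in PBS 2 and 297 in PBS 3, against 0.112 to 1.04 CPM. Ppp1r17, a phosphatase inhibitor of Purkinje cells, measured 146 CPM in Control 2, 156 in PBS 1, 156 in PBS 2 and 161 in PBS 3, against 0.112 to 0.718 CPM. The rich values of these 3 genes lay close together, and every free library lay far below them.

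The remaining top genes included markers of Purkinje cells and Bergmann glia. Car8, a carbonic anhydrase relative that binds the inositol trisphosphate receptor in Purkinje cells, averaged 1181 ± 81.4 CPM (SD, n = 4) in rich and 16.1 ± 5.37 CPM (SD, n = 7) in free libraries. Dao, the D-amino acid oxidase of hindbrain astrocytes and Bergmann glia, measured 43.5, 54.9, 64.0 and 67.0 CPM in Control 2, PBS 1, PBS 2 and PBS 3, and 0.112 to 1.05 CPM on the free side. Crtam, an immunoglobulin-family adhesion receptor known from T cells, measured 80.7, 95.4, 107 and 116 CPM in the same order, and at most 0.273 CPM on the free side. Nrk, a Nik-related kinase, stayed within 50.1 to 53.6 CPM in rich libraries and at or below 0.261 CPM in free ones.

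Granule cell genes were higher throughout. Gabra6 chose the sides and was set aside, and of the other 18 tested members of a list of 20 all 18 were called higher, with a median difference of 4.17. The last member, Atoh1, a transcription factor of granule cell precursors, was too low to be tested. Neurod1, a transcription factor of maturing granule cells, measured 238 CPM in Control 2, 268 in PBS 1, 308 in PBS 2 and 275 in PBS 3, against 9.01 to 19.6 CPM. Zic1, a zinc finger factor of granule neurons, measured 567 CPM in Control 2, 591 in PBS 1, 801 in PBS 2 and 708 in PBS 3, against 9.76 to 29.4 CPM. Barhl2, a homeobox factor of the rhombic lip lineage, measured 41.6, 40.6, 51.1 and 49.9 CPM in Control 2, PBS 1, PBS 2 and PBS 3, against 0 to 0.653 CPM. For each of these the highest free library lay far below the lowest rich library. The smallest differences belonged to genes that the forebrain also uses. Gabrd, the delta subunit of extrasynaptic GABA-A receptors, differed by 1.43, Cadps2, a dense-core vesicle priming factor, by 1.62, and Etv1, an ETS factor found in granule cells and cortical layer 5 neurons, by 2.29.

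Purkinje cell genes followed, with 21 of 24 called higher and a median difference of 2.82. Itpr1, the calcium release channel abundant in Purkinje cells, measured 3872 CPM in Control 2, 3798 in PBS 1, 4058 in PBS 2 and 3691 in PBS 3, against 463 to 1023 CPM. Skor2, a corepressor of the Purkinje lineage, measured 13.2, 12.7, 21.7 and 19.8 CPM in Control 2, PBS 1, PBS 2 and PBS 3, against 0 to 0.0653 CPM. Slc1a6, the glutamate transporter of Purkinje cells, averaged 139.9 ± 23.3 CPM (SD, n = 4) in rich and 8.10 ± 1.56 CPM (SD, n = 7) in free libraries. The sides did not overlap for any of these genes. The calcium buffers Calb1 and Pvalb, which forebrain interneurons also make, differed by 2.34 and 3.29.

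Pcp4 and Foxp2, genes of Purkinje cells that other brain regions share, were not called. Foxp2, a forkhead factor of Purkinje, thalamic and deep cortical neurons, measured 20.3, 14.8, 22.4 and 14.9 CPM in Control 2, PBS 1, PBS 2 and PBS 3, against 10.4 to 41.5 CPM on the free side.

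Among genes of cerebellar inhibitory interneurons and unipolar brush cells, 6 of 11 were called higher. Tfap2b, a transcription factor of the inhibitory lineage, measured 48.0 CPM in Control 2, 57.6 in PBS 1, 65.5 in PBS 2 and 60.6 in PBS 3, against 0.928 to 3.20 CPM. Eomes, a T-box factor of unipolar brush cells, measured 12.9, 9.56, 21.9 and 17.2 CPM in Control 2, PBS 1, PBS 2 and PBS 3, against 0.0525 to 0.504 CPM. Kit, a receptor tyrosine kinase of molecular layer interneurons, differed by 2.35. The sides did not overlap for these 3 genes. Of Bergmann glia genes, 5 of 9 were called higher. Gdf10, a growth factor of Bergmann glia, measured 114 CPM in Control 2, 92.3 in PBS 1, 125 in PBS 2 and 129.9 in PBS 3, against 2.87 to 7.71 CPM. Timp4, a metalloproteinase inhibitor, differed by 2.00, Hopx, a homeodomain protein, by 1.8 and Septin4, a cytoskeletal GTPase, by 1.47, while Ptprz1, Kcnj10, Kcnj16 and Fabp7, which other astroglia or their precursors also express, stayed below a difference of 1.

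Genes of midbrain-hindbrain patterning were called higher in 8 of 9 tested cases, with a median difference of 3.00. En2, the engrailed homeobox factor of the midbrain-hindbrain territory (chr5:28165694-28172166, plus strand), measured 69.8 CPM in Control 2, 88.4 in PBS 1, 124 in PBS 2 and 104 in PBS 3, against 0.341 to 1.76 CPM. Hes3, a repressor of the isthmic organizer, measured 39.5 CPM in Control 2, 42.6 in PBS 1, 46.9 in PBS 2 and 50.5 in PBS 3, against 0.0551 to 0.819 CPM. Meis1, a homeobox cofactor of the Hox proteins, differed by 3.20 and Irx2, of the Iroquois family, by 3.00. Pax5, a paired-box factor of the isthmus, was the exception at 1.45, 0.123, 3.83 and 1.02 CPM, against 0.157 to 2.37 CPM.

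Hox genes, which mark the medulla and spinal cord behind the cerebellum, did not follow the cerebellar markers. None of the 21 listed reached a mean of 1 CPM, so none was tested. PBS 3 held 646 Hox counts over 18 of the genes, 41.1 CPM in all. PBS 2 and ShK-223 1 held 38 counts each, and the other 9 libraries 1 to 8. PBS 3 thus stood alone, and Control 2 and PBS 1 were cerebellum-rich with 8 and 3 Hox counts. Slc6a5, the glycine transporter of inhibitory neurons in brainstem, spinal cord and cerebellum, was the only 1 of 9 tested brainstem genes called higher. It measured 34.2 CPM in Control 2, 31.7 in PBS 1, 57.6 in PBS 2 and 115 in PBS 3, against 0.0525 to 9.14 CPM with a median of 0.392 on the free side, and 113 CPM in PAP-1 1. The brainstem count depended on the libraries compared. It was 7 of 9 higher within batch CH, 5 of 9 with PBS 2 and PBS 3 alone as the rich side, and 3 higher and 4 lower of 8 within the Control group. The summed level of the list was 92.3 CPM in Control 2, 47.7 in PBS 1, 171 in PBS 2, 216 in PBS 3 and 147 in PAP-1 1, against 36 to 72.7 CPM on the free side, so that PBS 1 lay inside the free range. Slc6a5 alone made up 113 of the 147 CPM in PAP-1 1 and 115 of the 216 CPM in PBS 3.

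**Figure D3:**
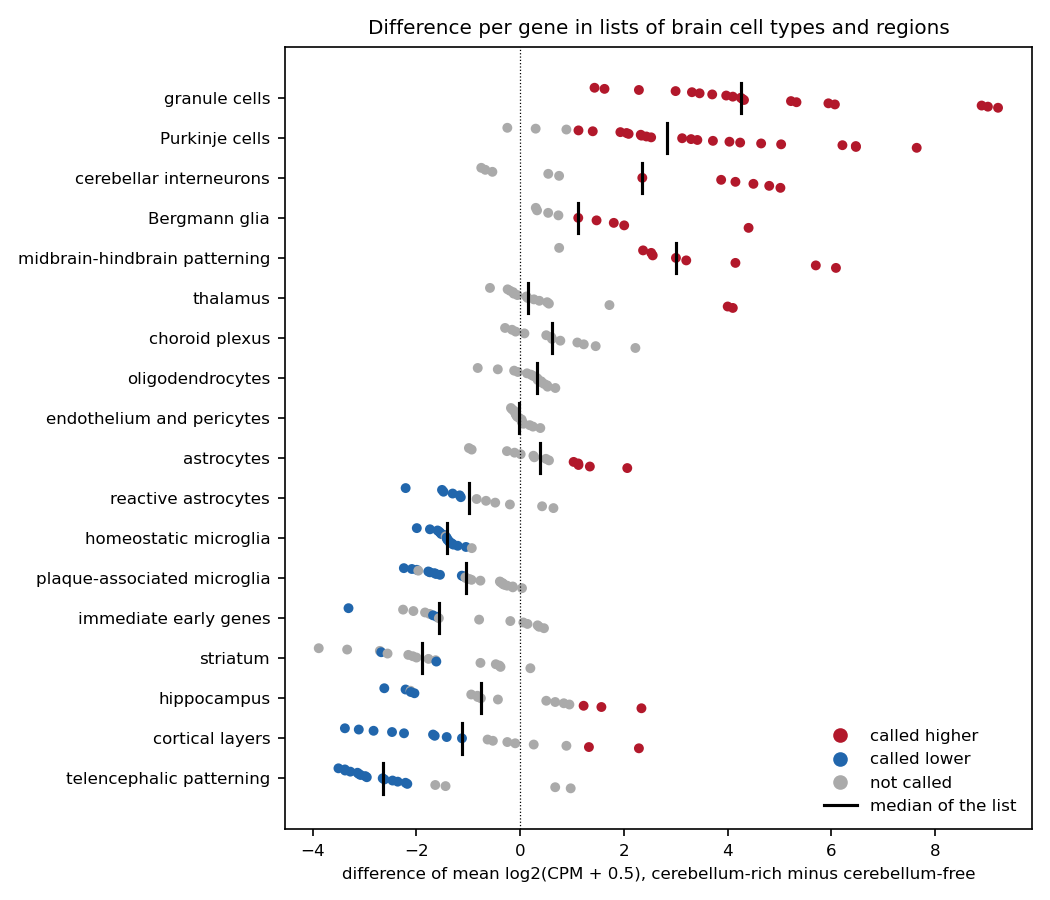
Difference of mean log2(CPM + 0.5), cerebellum-rich minus cerebellum-free, for each tested gene of 18 lists, 1 point per gene, with the list's median as a bar and the colour giving the call. All 19 (Gabra6, which chose the sides, included) granule cell genes lie to the right of 1. Of 19 telencephalic patterning genes 15 are called lower, while endothelial and pericyte genes stay near 0.

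Forebrain identity genes were lower in rich libraries. Of 19 telencephalic patterning genes, 15 were called lower, with a median difference of -2.65. Tbr1, a T-box factor of deep cortical layers (chr2:61802930-61814114, plus strand), measured 29.4 CPM in Control 2, 25.7 in PBS 1, 1.25 in PBS 2 and 3.37 in PBS 3, against 76.5 to 114 CPM with a median of 99.2 on the free side. Lhx6, a LIM factor of cortical interneurons, measured 5.46, 3.8, 0.278 and 0.636 CPM in Control 2, PBS 1, PBS 2 and PBS 3, against 17.6 to 25.4 CPM. In both genes PBS 2 and PBS 3 lay far below Control 2 and PBS 1, which in turn lay below every free library. The 4 exceptions were Neurod2, which granule cells also express, and Zbtb18, a zinc finger repressor, with differences of 0.67 and 0.97, and Six3 and Nkx2-1, at -1.64 and -1.44 with overlap between the sides. None of the 19 was called higher, and 1 was without PAP-1 2.

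Under the same limits (called, a mean of at least 5 CPM, no predicted models) the 12 largest lower differences included those of Crym, Chrm1, Tbr1, Gda, Fezf2, Egr3, Kcnj4, Icam5, Lhx6, Smim43 and Kcnv1, and ran from -3.68 to -3.24. Crym, a thyroid hormone-binding protein, measured 11.3 CPM in Control 2, 14.4 in PBS 1, 0.627 in PBS 2 and 1.72 in PBS 3, against 30.9 to 116 CPM with a median of 58.3. Chrm1, the M1 muscarinic receptor, measured 58.0 CPM in Control 2, 44.7 in PBS 1, 1.67 in PBS 2 and 10.2 in PBS 3, against 161 to 232 CPM with a median of 196. Icam5, the adhesion protein telencephalin of forebrain dendrites, measured 44.5 CPM in Control 2, 36.8 in PBS 1, 1.74 in PBS 2 and 7.06 in PBS 3, against 99.8 to 166 CPM. Gda, guanine deaminase, and Kcnj4, an inward rectifier potassium channel, were 6.54-fold and 5.37-fold higher on the free side by the ratio of mean CPM. Transcripts of these genes remained well above 0 in Control 2 and PBS 1, at 25.7 to 39.6 CPM for Tbr1 and Kcnj4.

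Lists of single forebrain structures were more mixed than the patterning list. Of 17 cortical layer genes, 9 were called lower and 2 higher, namely Etv1 and Bcl6, a transcriptional repressor, at 1.32. Lamp5, a membrane protein of superficial layers and neurogliaform interneurons, measured 25.1 CPM in Control 2, 38.6 in PBS 1, 18.3 in PBS 2 and 47.1 in PBS 3, against 59.1 to 217 CPM. Of 17 hippocampal genes, 4 were called lower and 3 higher, with 8 lower and 2 higher within batch C. The lower ones included Fibcd1, a chitin-binding receptor enriched in field CA1, at -2.62, and the higher ones Prox1, Tdo2 and Calb1, of which Prox1, a dentate granule cell factor, measured 56.5, 54.2, 72.3 and 63.2 CPM in Control 2, PBS 1, PBS 2 and PBS 3, against 20.1 to 34.7 CPM.

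Striatal genes had a median difference of -1.88, yet only 2 of 16 were called, Pdyn, the dynorphin precursor, at -2.68 and Foxp1, a forkhead factor, at -1.62. The free libraries themselves spread widely. The summed level of the 16 genes ran from 415 CPM in PAP-1 2 to 2857 CPM in Control 1 on the free side, and from 390.4 to 636 CPM on the rich side. With PBS 2 and PBS 3 alone as the rich side (a setting added after the values were seen) 10 striatal genes were called lower. The count was 9 without PBS 1, 6 without ShK-223 1 and 16 within the Control group. Within batch C, where PAP-1 2 was the only free library, 4 were lower and 3 higher. Thalamic genes, outside both territories, had a median of 0.14 with 2 of 15 called higher, Calb2 and Grid2ip, both of which cerebellar neurons express, while 6 were higher within the Control group and 5 within batch CH.

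Receptor subunits differed member by member. Of 14 GABA-A subunit genes, Gabra6 and Gabrd were called higher and Gabra3, Gabra4, Gabra5 and Gabrg3 lower. Gabra5, the alpha subunit of extrasynaptic hippocampal receptors, measured 12.2 CPM in Control 2, 8.34 in PBS 1, 6.27 in PBS 2 and 10.8 in PBS 3, against 24.5 to 64.9 CPM. Of 17 glutamate receptor genes, 3 were called higher, Grin2c and Gria4 among them, and Grin2a, Grin2b and Grik5 were called lower, with 4 higher and 1 lower within the Control group.

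The NMDA receptor subunits ran in opposite directions. Grin2c, the subunit of mature granule cells, measured 319 CPM in Control 2, 404 in PBS 1, 365 in PBS 2 and 363 in PBS 3, against 33.4 to 52.3 CPM with a median of 47.5 on the free side. Grin2b, the subunit that predominates in the forebrain, measured 186 CPM in Control 2, 150.3 in PBS 1, 48.0 in PBS 2 and 66.6 in PBS 3, against 499 to 582 CPM with a median of 541. The obligatory subunit Grin1 measured 372, 354, 374 and 356 CPM in Control 2, PBS 1, PBS 2 and PBS 3, against 356 to 418 CPM on the free side. In each rich library Grin2c was above and Grin2b below all free libraries, and the Grin1 levels of the sides overlapped.

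Among cerebellins, their relatives and partners, 3 of 10 were called higher, Cbln1 and Cbln3 among them, and Cbln4 and C1ql3 lower, with 1 lower instead of 2 without PBS 1 and within batch CH, 4 within batch C and 0 within the Control group. Cbln1, a synaptic organizer that parallel fibres secrete, measured 509 CPM in Control 2, 556 in PBS 1, 644 in PBS 2 and 619 in PBS 3, against 4.04 to 18.6 CPM. Cbln4 measured 9.52, 1.16, 8.08 and 6.61 CPM in the same order of libraries, against 9.74 to 26.1 CPM, and the neurexin gene Nrxn2 differed by 0.26. The vesicular glutamate transporter Slc17a7, which cortical neurons and granule cells share, was lower at -1.27, and the synaptic vesicle docking protein Snap25, made by neurons in general, differed by -0.01. Gad1, which makes GABA, stayed below the threshold at 0.63.

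The drug target of the study was not called. Kcna3 (chr3:107036169-107038070, plus strand) measured 2.55 CPM in Control 2, 2.45 in PBS 1, 2.72 in PBS 2 and 2.22 in PBS 3, against 2.83 to 4.31 CPM with a median of 3.69. All 4 rich libraries lay below all free libraries, but at a difference of -0.46, under the threshold. Such an order alone held in 2846 of 14121 tested genes. Of the 9 tested genes of its channel family and auxiliary subunits, Kcna4, another subunit of the family, was the only one called, at -2.05, and without PBS 1 the count of lower genes was 2, with 2 or 3 in the subsets by treatment or batch. Kcna1 and Kcna2, axonal subunits that basket cell terminals also carry, differed by 0.89 and 0.66.

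Microglial genes were lower in rich libraries. Of 18 homeostatic microglia genes, 16 were called lower and 0 higher, with a median difference of -1.42. Trem2, the lipid-sensing microglial receptor (chr17:48346401-48354147, plus strand), measured 20.3 CPM in Control 2, 40.5 in PBS 1, 8.28 in PBS 2 and 19.6 in PBS 3, against 61.3 to 99.3 CPM with a median of 69.2. P2ry12, the purinergic receptor of resting microglia, measured 20.1 CPM in Control 2, 24.9 in PBS 1, 10.9 in PBS 2 and 14.2 in PBS 3, against 31.3 to 62.4 CPM with a median of 43.4. Cx3cr1, the fractalkine receptor, averaged 41.9 ± 15.8 CPM (SD, n = 4) in rich and 112 ± 25.3 CPM (SD, n = 7) in free libraries. PBS 2 was lowest and PBS 1 highest among the rich libraries in all 3 genes, and no rich library reached the free range. Sall1 and Gpr34 were not called, at -0.93 and -1.44.

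The extent of the microglial difference varied with the libraries compared. The summed level of the 18 genes was 474 CPM in Control 2, 686 in PBS 1, 323 in PBS 2 and 493 in PBS 3. On the free side it was 1979.9 CPM in Control 1, 1379.6 in Control 3 and 1000.2 to 1305 in the ShK-223 and PAP-1 libraries, and it was 1433 in PAP-1 1. Within the Control group, 18 of 18 were lower by the same rule and within batch CH 17, but within batch C, with 3 rich libraries against PAP-1 2 alone, 3. Each of these subsets leaves 1 library on a side, so that non-overlap is easier to reach there than with 4 against 7. Treatment was unequal between the sides, and its part in these values was not tested.

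Plaque-associated genes of microglia and reactive genes of astrocytes were lower in part. Of 25 plaque-associated microglial genes, 10 were called lower and 0 higher, with a median of -1.04. With PBS 2 and PBS 3 alone as the rich side, or without PBS 1, the count was 13, within the Control group 17 of 24, within batch C 7 of 23 and within batch CH 16. Cst7, a cystatin induced in plaque-associated microglia, measured 9.00 CPM in Control 2, 24.6 in PBS 1, 4.59 in PBS 2 and 7.31 in PBS 3, against 32.9 to 68.5 CPM with a median of 39.1. Lpl, lipoprotein lipase, differed by -2.09 and Clec7a, a beta-glucan receptor, by -1.55. Apoe, which astrocytes make as well, differed by -0.33, and Axl, Spp1 and Lgals3 by -0.39, -0.14 and 0.03. Trem2 and Tyrobp stand on both microglial lists.

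Of 12 reactive astrocyte genes, 6 were called lower and 0 higher, against 8 lower within batch CH and 2 lower and 1 higher within batch C. Gfap, the intermediate filament of astrocytes, measured 527 CPM in Control 2, 754 in PBS 1, 419.6 in PBS 2 and 920.2 in PBS 3, against 981 to 2577 CPM with a median of 1287, so that PBS 3 lay just below the lowest free library. Serpina3n, a secreted protease inhibitor, measured 27.6 CPM in Control 2, 26.4 in PBS 1, 13.9 in PBS 2 and 34.5 in PBS 3, against 56.4 to 337 CPM with a median of 95.3. General astrocyte genes did not follow: 5 of 14 were called higher, with a median of 0.38. Aqp4, the water channel of astrocyte endfeet, measured 285 CPM in Control 2, 319 in PBS 1, 359.6 in PBS 2 and 422 in PBS 3, against 127 to 247 CPM with a median of 153, and S100b, a calcium-binding protein, differed by 1.34. Slc1a3, the glutamate transporter abundant in Bergmann glia, was higher at 1.12, and Slc1a2, the forebrain-predominant transporter, differed by -0.99, just short of the threshold. Of the 14 genes 0 were called lower, against 2 without PBS 1 and 1 without Control 1, Control 2, ShK-223 1 or PAP-1 2.

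Other non-neuronal cells showed no called gene over all 11 libraries. None of 16 oligodendrocyte, 10 oligodendrocyte precursor, 15 endothelial and pericyte or 12 choroid plexus genes was called in either direction, with medians of 0.32, -0.41, -0.02 and 0.61. The summed precursor level nevertheless did not overlap, at 194 to 241 CPM in rich and 259 to 370 CPM in free libraries. All rich libraries lay below all free ones in 4 of the 10 precursor genes, against 2846 of 14121 tested genes. Mbp, myelin basic protein, measured 1979 CPM in Control 2, 1854 in PBS 1, 3238 in PBS 2 and 3707 in PBS 3, against 968 to 2712 CPM with a median of 2440.2. Ttr, the transthyretin of choroid plexus, measured 39.1 CPM in Control 2, 23.7 in PBS 1, 522 in PBS 2 and 1203 in PBS 3, and from 3.97 to 1186 CPM on the free side. Both sides spanned a wide range for Ttr, with PBS 3 the highest rich and ShK-223 2 the highest free library. Leaving out PBS 1 called 1 choroid plexus gene higher, and leaving out Control 2, PBS 1, ShK-223 1 or PAP-1 2 called 1 precursor gene lower. Within batch C 8 of 11 choroid plexus genes were called higher and within batch CH 3 of 12, and within the Control group 1 of 11 was higher and 2 were lower. Among oligodendrocyte and precursor genes these subsets called at most 2 of a list, and among endothelial and pericyte genes 0.

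The gene whose promoter drives the transgenes was lower. Thy1, a surface glycoprotein of projection neurons (chr9:44043384-44048579, plus strand), measured 864 CPM in Control 2, 725 in PBS 1, 594 in PBS 2 and 729 in PBS 3, against 1812 to 2839 CPM with a median of 2079.7, a difference of -1.55. It was the only 1 of 9 genes of amyloid processing and its promoter that was called. App measured 1623 CPM in Control 2, 1443 in PBS 1, 1614 in PBS 2 and 1572 in PBS 3, against 1817 to 1974 CPM with a median of 1914. Every rich library lay below every free library for App, at a difference of -0.28, an order shared by 2846 of 14121 tested genes. How far reads of the human transgenes entered these mouse rows was not tested.

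Immediate early genes had a median difference of -1.57, with 3 of 15 called lower, Egr3, Fosb and Egr4, all activity-induced transcription factors. Egr3 measured 36.2 CPM in Control 2, 29.9 in PBS 1, 1.95 in PBS 2 and 8.96 in PBS 3, against 78.6 to 219 CPM with a median of 122. Arc, the synaptic plasticity protein, measured 83.3, 51.0, 26.5 and 33.1 CPM in Control 2, PBS 1, PBS 2 and PBS 3 against 61.7 to 434 CPM, with Control 1 the lowest free library, and overlapped. PAP-1 2, the only free library of batch C, had the highest summed level of the list on the free side, at 1983 CPM. With PBS 2 and PBS 3 alone as the rich side 7 were called lower, within batch CH 8, within batch C 12, 8 with the library Control 1 left out and 6 with Control 2 left out. Within the Control group, 1 gene was called lower and 3 higher.

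The 4 rich libraries differed less in cerebellar genes than in forebrain genes. The median level of the 19 granule cell genes, as a percentage of the rich mean, was 87.7 in Control 2, 97.1 in PBS 1, 111 in PBS 2 and 104 in PBS 3, and 3.78 to 6.26 in the free libraries. Without Gabra6 it ran from 87.8 to 111 on the rich and from 3.98 to 6.73 on the free side. For the 21 called Purkinje cell genes it was 92.0, 93.1, 107 and 109, and 8.00 to 11.9 in the free libraries. The 15 called telencephalic genes, as a percentage of the free mean, were at 29.7 in Control 2, 25.6 in PBS 1, 1.34 in PBS 2 and 5.26 in PBS 3, against 83.3 to 110.2 in the free libraries. The level of these forebrain genes was thus far lower in PBS 2 and PBS 3 than in PBS 1 and Control 2. The median cerebellar level of all 4 lay between 87.7% and 111% of their mean, with PBS 2 and PBS 3 highest in both lists.

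The same split ran through the called genes as a whole. PBS 2 and PBS 3 both lay below PBS 1 and Control 2 in 761 of the 1051 lower genes and above them in 14. They both lay above in 468 of the 871 higher genes and below in 24. The share over all tested genes was not computed, so these counts describe the called genes and set them apart from no others. The 16 called microglial genes did not share this order, at 35.6% of the free mean in Control 2, 51.9% in PBS 1, 22.2% in PBS 2 and 36% in PBS 3. Among called genes the median difference was 1.46 for higher and -1.19 for lower genes within the Control group, 1.57 and -1.32 within batch C, and 1.65 and -1.89 within batch CH, where PBS 2 is the rich library. The direction of these genes in such subsets is fixed by the calling rule, and batch B holds no rich library.

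**Figure D4:**
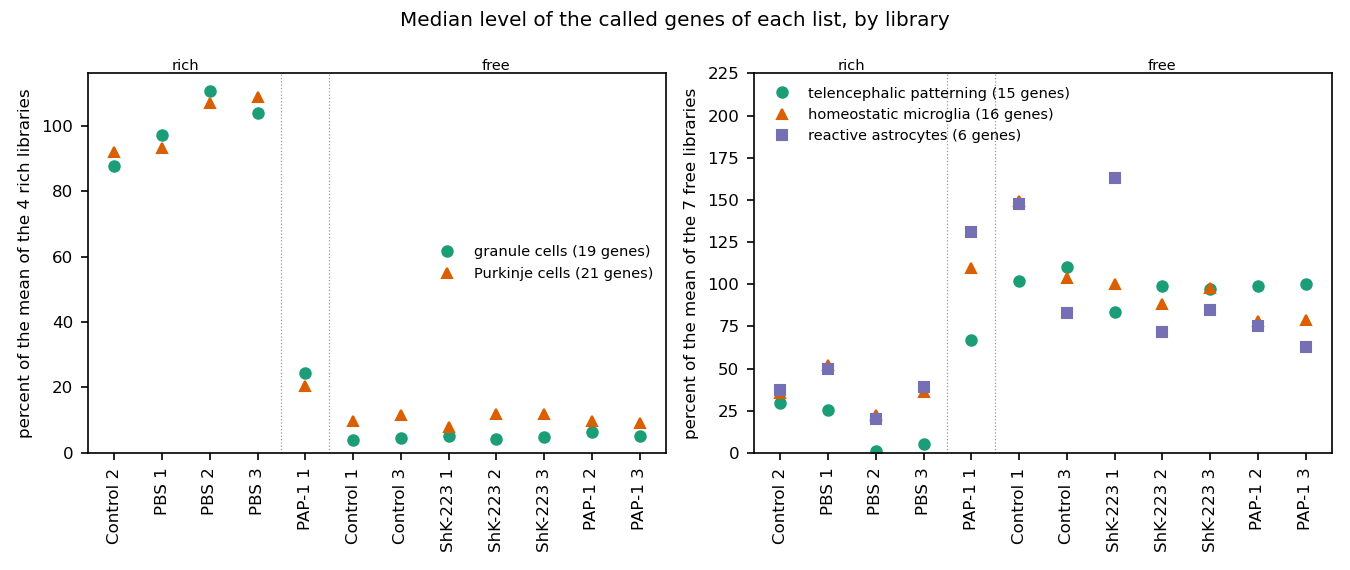
Median level of the called genes of each list in each library, 1 point per list and library, as a percentage of the mean of the 4 rich libraries (left) or of the 7 free libraries (right). Granule and Purkinje cell genes lie between 87.7 and 111 across the rich libraries. Telencephalic genes are at 29.7 and 25.6 in Control 2 and PBS 1 but 1.34 and 5.26 in PBS 2 and PBS 3.

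The left-out library, PAP-1 1, carried part of both territories. Its position was taken per gene as the percentage of the way from the free mean (0) to the rich mean (100), for called genes with a difference of at least 2. Gabra6 was set aside, since its level is what left the library out. The median position was 20.3% over the other 16 granule cell genes (quartiles 14.9% and 23.3%), 13.5% over 18 Purkinje cell genes and 12.9% over 8 midbrain-hindbrain genes. Over the 279 higher genes it was 17.0%. Telencephalic genes lay farther along, at 40.0% over 15 genes, and the 5 lower cortical layer genes at 66.4% (29.3% to 103%). Over all 204 lower genes the median was 23.6%, with quartiles of -8.52% and 47.5%. With a difference of at least 1 (a setting added after the values were seen) it was 13.2% over 1051 lower and 14.9% over 871 higher genes, so that the order of the directions turned. Slc6a5 lay beyond the rich mean, at 194%. PAP-1 1 was thus placed low on the cerebellar lists and spread widely on the forebrain lists.

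**Figure D5:**
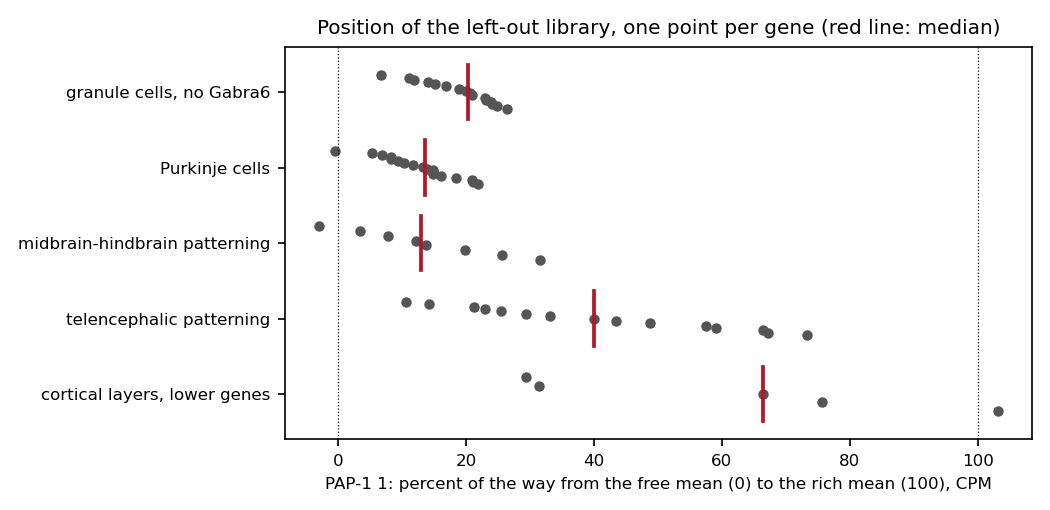
Position of PAP-1 1 between the free mean (0) and the rich mean (100) in percent, 1 point per called gene with a difference of at least 2, with the median of each list as a bar. Granule cell genes (without Gabra6) centre on 20.3%, Purkinje cell genes on 13.5%, telencephalic genes on 40.0% and the lower cortical layer genes on 66.4%.

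RNA integrity and depth were compared between the sides. RNA integrity had no part in choosing them, whereas the total count is the divisor of the CPM that did. The RNA integrity number was 8.40 ± 0.141 (SD, n = 4) in rich and 8.24 ± 0.387 (SD, n = 7) in free libraries, a difference of 0.157 (exact permutation test, two-sided, p = 0.545, adjusted p = 0.545). Total counts averaged 15909900 ± 1200670 (SD, n = 4) in rich and 17710400 ± 1160550 (SD, n = 7) in free libraries, a difference of -1800490 (exact permutation test, two-sided, p = 0.0424, adjusted over the 2 tests p = 0.0848). There are 330 ways to choose 4 of 11 libraries, and the smallest p they allow is 0.00303. The lower depth of rich libraries did not pass the threshold after adjustment with all 11 libraries, but did without Control 1, at a difference of -2198010 (exact permutation test, adjusted p = 0.00952). Thinning all libraries to the smallest total gave 872 higher and 1040 lower genes.

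Treatment could be compared among the 7 free libraries, all with a Gabra6 level below 2 CPM. Their striatal content was unequal, however. The summed level of the 16 striatal genes was 2857 CPM in Control 1 and 2253 in Control 3. It was 430 CPM in ShK-223 1, 2009 in ShK-223 2, 1104 in ShK-223 3, 415 in PAP-1 2 and 552 in PAP-1 3. The part of this difference in the counts below was not tested. Of 14963 genes tested by edgeR's quasi-likelihood test across Control, ShK-223 and PAP-1, 0 (0%) passed a Benjamini-Hochberg adjusted p of 0.05, the smallest adjusted p being 0.187, and 1762 had an unadjusted p under 0.05. DESeq2's likelihood ratio test called 416. Without ShK-223 1 the edgeR count was 368, so that 1 library decides it. Of 380 genes of the lists and names above that entered the test, 0 passed and 116 had an unadjusted p under 0.05. These p-values set differences between treatments against the spread between libraries of 1 treatment, each from its own mouse by the labels. That spread holds unequal tissue content as well as other differences between mice, which were not told apart.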

How the data were processed

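Paired-end RNA sequencing of 12 libraries, each from its own mouse per the labels, was deposited by the authors as 1 table of whole-number counts per gene, with 21643 rows and no normalization. Per the submitters' processing notes, STAR 2.7.11a, DESeq2 1.40.2 and R 4.3.2 were used with the build GRCm38 (mm10). The name of the counting tool, the strand setting and annotation release were not given in the sources used here, so overlapping, antisense or near-identical genes may share reads. Libraries held 14364013 to 19048551 counts, and detected genes ran from 16662 to 17142, which sets the counting error of low genes. RNA integrity numbers ran from 7.8 to 8.9. The column name of Control 2 carries another lane number than the other columns, and its effect was not tested. Of the rows, 2893 were 0 in all libraries and 22 carried repeated names, which were kept apart. The smallest chi-square per gene over all library pairs was 7.07, so none was a copy.

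From the deposited counts, CPM were computed on column totals, and sides, calls and differences as given above, with a pseudocount of 0.5 and a minimum mean of 1 CPM. The 7 free libraries were fitted with the edgeR 4.0.16 quasi-likelihood F test (filterByExpr, TMM, R 4.3.3) with treatment as the term and Benjamini-Hochberg adjustment, and with DESeq2 1.42.0 as an alternative. That fit was also run on simulated counts, which held no differences in tissue content. The outcome of that run is not given and bears on none of the counts above. RNA integrity and totals were compared by exact permutation tests. Gene lists (33, with 438 genes, 435 matched) and the contrast itself were chosen with earlier results of these data known. The named genes were the 4 markers, the 12 highest and 12 lowest called genes with a mean of at least 5 CPM and no predicted models, 12 fixed genes, and members of the lists with the largest differences or not called. Positions of 445 of 447 genes came from GENCODE M21 on GRCm38, and promoters from RefSeq on GRCm38.p6. Some genes are not reported here. Figures were drawn with matplotlib 3.10.9. Alternatives covered scaling, pseudocount, filters, thresholds, thinning, subsets by treatment and batch, the placing of PAP-1 1, the minimum difference behind its position and leaving out each library.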

Additional observations from a re-analysis of the deposited data

Results flagged for a closer look

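Of 72 groups of values examined, 10 held a library that stood far from the rest of its side, and chance flags about 1 in 20 groups. On the rich side PBS 3 had a summed Hox level of 41.062 CPM with the next library at 2.6455, and a summed hypothalamic level of 44.495 CPM with the next at 18.266. PBS 1 had a summed endothelial and pericyte level of 561.53 CPM with the next at 473.55. On the free side ShK-223 1 stood apart for Hox genes, at 2.0949 CPM against 0.39151, and for transmitter identity genes, at 2725.8 CPM against 2461.8. ShK-223 3 stood apart for thalamic genes, at 1253.8 CPM against 978.62. Control 1 stood apart for homeostatic microglia, at 1979.9 CPM against 1379.6, and for oligodendrocyte precursors, at 370.11 CPM against 294.2. It was also the highest free library for Cbln3, at 3.7846 CPM against 1.5867, and for Gabra6, at 1.2398 CPM against 0.51094. Gabra6 chose the sides, so its flag, counted among the 10, only describes values that the rule used. The granule cell and GABA-A subunit sums among the 72 groups hold Gabra6 as well. The number of flags is therefore a description and not a test.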

How the results depend on the processing

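The counts of 871 higher and 1051 lower genes stayed within 1.5 times of themselves under TMM and RLE scaling, both pseudocounts, both filters, thinning, Control libraries alone, PBS libraries alone on the rich side, batch C and, added after seeing the data, only PBS 2 and PBS 3 on the rich side. A minimum difference of 2 gave 279 and 204, PAP-1 1 counted as rich gave 452 and 316, and batch CH gave 1673 lower genes. The first follows from the stricter threshold, and the cause of the others was not tested. Leaving out 1 library gave 838 to 924 higher and 933 to 1218 lower genes. The total count difference passed the threshold with PAP-1 1 counted as rich (-1957670, exact permutation test, adjusted p = 0.0429) and without Control 1, with a range of -2240180 to -1285200 over the 11 omissions, and that of RNA integrity ran from 0.0833 to 0.267. Genes differing by treatment among free libraries numbered 416 by DESeq2 and 0 to 368 on leaving out 1 library, with 368 without ShK-223 1, 4 without ShK-223 2 and 1 without Control 3. They numbered 0 with RLE factors, batch as a term, no filter and a threshold of 0.1. The median position of PAP-1 1 ran over the omissions from 19.04% to 21.0% for granule cells (Gabra6 included), 12.96% to 14.2% for Purkinje cells, 12.4% to 13.4% for midbrain-hindbrain genes, 36.8% to 42.8% for telencephalic genes, 16.2% to 17.8% for all higher and 19.2% to 32.1% for all lower genes. Of the counts per list over all alternatives, 1491 stayed within 1.5 times and 159 moved. Of the differences of named genes 3692 moved by less than 1 SD, 358 by more, and 0 called ones reversed. Where an alternative only leaves out libraries, the calling rule fixes the direction of called genes, so none could reverse there. The median difference over all tested genes was 0.04 on column totals, 0.03 by TMM and -0.0036 by RLE. No paired analysis was possible because the labels give no replicate numbers that pair mice. Limits are that region and treatment overlap, and that each subset within Control or a batch leaves 1 library on a side. Each Control library is also of another batch, and genes of a few counts are set by counting error.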

Other observations

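PAP-1 1, which belonged to neither side, had the highest immediate early gene level of the 12 libraries. The summed level of the 15 genes was 3042 CPM there, against 368 to 597 CPM in the rich libraries and 406 to 1983 CPM in the free ones. Fos, the founding member of the family of activity-induced factors, measured 299 CPM in PAP-1 1 with 96.6 CPM in the highest free library. Npas4, an activity-induced factor of neurons, measured 308 CPM against 99.6, and Fosb 213 CPM against 40.5. These values come from 1 library and no test was made.

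Choroid plexus genes varied within each side rather than between them. The summed level of 12 genes was 73.7 CPM in Control 2, 53.1 in PBS 1, 628 in PBS 2 and 1371 in PBS 3. On the free side it ran from 18.1 CPM in PAP-1 2 to 1360.1 CPM in ShK-223 2. Oligodendrocyte genes summed to 2249 CPM in PAP-1 1 and 2379.5 CPM in PAP-1 3, the lowest of all libraries, and to 8642 CPM in PBS 3, the highest.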
